A study of Mus musculus with 8 samples.

Results

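The hexokinases and the genes that set the balance between glucose phosphorylation and dephosphorylation were followed in islets from transgenic and wild-type mice, namely Hk1, Hk2, Hk3, Hkdc1, G6pc2, G6pc3 and Gckr. These 7 genes, of 26916 gene symbols on the array, were taken by symbol, and all 15 of their probes, of 56605, were kept. Of the 15 probes, 13 were well above background on enough arrays to be tested. The remaining 2, one for Hk1 (A_55_P2744975) and one for Hkdc1 (A_55_P2719135), were not well above background on any of the 8 arrays. The genes were chosen with the transgenic against wild-type comparison known, so their differences are given as a description, without p-values, and where a member is said to pass the rule for calling a probe, nothing is concluded from it.

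The study asked which genes change in β-cells that carry more uncoupling protein 2 (UCP2), a carrier of the inner mitochondrial membrane. βUCP2Tg mice carry a mouse Ucp2 cDNA behind a rat Ins2 promoter, which is active in β-cells, and WT mice do not. Islets of 4 βUCP2Tg and 4 WT samples, all labelled male, were kept for 8 h in culture medium with 200 mg/dL glucose, and their total RNA was hybridised to 1-colour Agilent arrays. The methods give an age of 8 to 12 weeks for mice whose islets were taken, and whether a sample is 1 mouse or a pool is not given in the sources used here, so the spread between samples may be technical. All 8 arrays were on 1 slide, with the WT samples in one row and the βUCP2Tg samples in the other, so that position on the slide and genotype cannot be told apart. Islets hold several cell types, and fewer cells of a type cannot be told apart from less RNA per cell.

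A glucose molecule that enters a cell is committed by phosphorylation to glucose 6-phosphate. In most tissues this is done by hexokinases with a high affinity for glucose. Hk1 is the ubiquitous hexokinase and Hk2 that of muscle and fat, and both can dock on mitochondria; Hk1 is one of the genes that mature β-cells keep at a low level. Hk3 is best known from white blood cells, and Hkdc1 is the most recently described relative. G6pc2 and G6pc3 run the reaction backwards in the endoplasmic reticulum, the first almost confined to islets and the second in most tissues. Gckr encodes a protein best known from the liver cell nucleus, where it regulates the phosphorylation of glucose.

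The probes on which the results turn are shown because each signal below is the hybridisation to 1 stretch of 60 bases. Capitals mark AATAAA, the hexamer of many polyadenylation signals, which occurred in 2 of the 15 member probes.
Hk1, A_55_P2037398: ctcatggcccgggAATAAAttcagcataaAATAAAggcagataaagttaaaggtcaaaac
Hk1, A_55_P2027999: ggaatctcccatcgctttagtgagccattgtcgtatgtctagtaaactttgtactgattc
Hk2, A_51_P204080: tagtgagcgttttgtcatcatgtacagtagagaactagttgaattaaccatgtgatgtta
Hk3, A_66_P127452: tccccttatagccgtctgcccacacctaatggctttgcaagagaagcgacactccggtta
Hkdc1, A_51_P322972: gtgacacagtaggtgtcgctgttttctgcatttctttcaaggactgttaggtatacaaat
G6pc2, A_52_P498119: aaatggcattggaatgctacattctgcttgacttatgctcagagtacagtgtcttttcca
G6pc3, A_51_P430552: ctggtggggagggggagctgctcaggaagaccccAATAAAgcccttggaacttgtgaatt
Gckr, A_51_P198694: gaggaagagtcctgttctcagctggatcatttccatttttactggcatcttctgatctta

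No run of more than 8 bases was shared, on either strand, by any of the 91 pairs of probes of different member genes. Probes of the same gene shared at most 11 bases, so that the 2 probes of Hk3, of G6pc2 and of G6pc3 read separate stretches of their transcripts. The array table names transcript variant 1 for Hk1 probe A_55_P2027999 and transcript variant 2 for A_55_P2647528, while A_55_P2037398 refers to an older mRNA entry without a description. The probes were not placed on transcripts. The variant names below are therefore labels only, and whether a probe reads 1 variant alone is not known. In RefSeq (GRCm38.p6), Hk1 and Hkdc1 lie close together on chromosome 10, with 0 protein-coding genes and 1 other listed gene between them.

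The labels were checked first on Ucp2. Its probe A_51_P297105 lay between 6.99 and 7.71 in βUCP2Tg and between 0.92 and 1.46 in WT islets, on the scale used throughout, which is the log2 signal minus the array's 75th percentile. The difference was 6.24 ± 0.18 (SE, n = 4 and 4; limma, Benjamini-Hochberg adjusted p = 9.32e-06). A second Ucp2 probe, A_52_P90265, differed by 0.44 ± 0.12 (limma, adjusted p = 0.0987). All 9 β-cell markers were well above background on every array, and their mean ranged from 4.83 to 5.15 in βUCP2Tg and from 4.75 to 5.29 in WT islets. Some arrays stood apart. The mean of 17 hypoxia-response genes was 1.41 to 1.48 in βUCP2Tg 1 to 3 but 2.65 in βUCP2Tg 4, and 3.0 to 3.1 in WT 2 to 4 but 2.19 in WT 1. The liver transcripts Alb and Serpina1a were high in βUCP2Tg 3 alone. The mean of 10 acinar genes ranged from -0.58 to 4.01 in βUCP2Tg and from -0.14 to 4.77 in WT islets.

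A probe was called when limma's adjusted p was under 0.05 and the fold change over 1.5. Over all probes, 145 of 35363 were called (0.41%), and 1 of the 13 member probes was, that of Hkdc1. The arrays of the 2 groups did not overlap for 4393 probes (12.4%), and for the same 1 member probe. Because the genes were chosen on this contrast, nothing is read from these shares. The 13 differences had a median of -0.05, beside -0.02 over all probes, with 7 lower and 6 higher in βUCP2Tg islets.

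**Figure D1:**
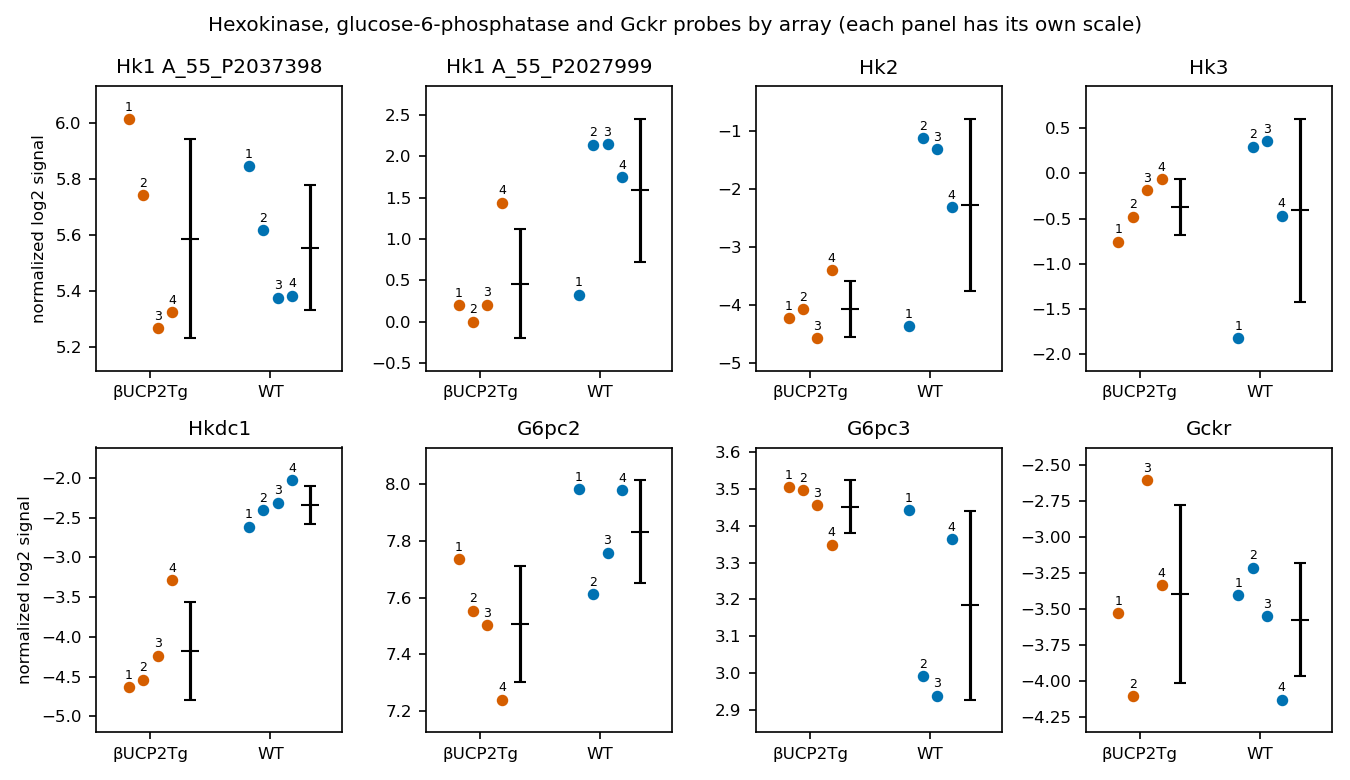
Normalized log2 signal of 8 member probes, 1 point for each array with its replicate number, with the group mean ± SD (n = 4) in black. Hkdc1 is the panel in which the 4 βUCP2Tg arrays, -4.63 to -3.28, all lie below the 4 WT arrays, -2.61 to -2.03, while WT 1 sits with the βUCP2Tg arrays for Hk2 and Hk1 A_55_P2027999. Heights are not comparable between panels.

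Hkdc1 showed the clearest separation among the hexokinases. Its probe read -4.63, -4.54, -4.24 and -3.28 in βUCP2Tg 1 to 4 and -2.61, -2.41, -2.31 and -2.03 in WT 1 to 4. The highest βUCP2Tg value thus lay below the lowest WT value, and βUCP2Tg 4 was the transgenic array nearest to WT. The difference was -1.83 ± 0.29 (SE), that is 3.56-fold lower in βUCP2Tg islets. Of the other cell types, the mean of 4 measured duct markers was -0.21 to 0.06 in βUCP2Tg and -0.002 to 0.80 in WT islets. The duct keratin Krt19 differed by -1.63 with no overlap and Sox9 by -0.88, while Krt7 differed by 0.70 and Spp1 by -0.37. Cftr was well above background on 0 βUCP2Tg and 3 WT arrays. The part of duct cells in the Hkdc1 difference was not tested. The Hkdc1 spots were dim, with processed signals from 20.6 to 58.1 in βUCP2Tg and from 77.8 to 107.7 in WT islets, although well above background on all 8 arrays. In the normexp setting, median spot signals were background-corrected, a constant of 50 was added, and the arrays were quantile-normalized. The added constant compresses dim spots. There the Hkdc1 difference shrank to -0.75 ± 0.12 in the same direction, and the probe was again called. The call was lost under quantile normalization of the processed signals, where the difference was -1.76 ± 0.28. The call was lost as well without the filter on dim probes and in the methods' t-test after adjustment. It was also lost when any one of βUCP2Tg 1, 2 or 3 or of WT 2, 3 or 4 was left out, with differences between -1.85 and -1.68 in these 6 fits.

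Hk2 had a difference close to that of Hkdc1, but its groups overlapped. Its only probe read -4.23, -4.07, -4.57 and -3.40 in βUCP2Tg islets and -4.37, -1.12, -1.31 and -2.31 in WT islets. WT 1 therefore lay among the transgenic arrays, and the other 3 WT arrays lay above all of them. The WT SD of 1.49 was accordingly larger than the βUCP2Tg SD of 0.49, and the difference of -1.79 ± 0.67 (SE) was not called. With normexp it shrank to -0.97 ± 0.34. Without WT 1 it was -2.49 ± 0.36, and the probe was called, in a fit that called 3759 of 34786 probes (10.8%).

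The probes of Hk1 did not move alike. Probe A_55_P2037398, the one with the highest mean signal, read 6.02, 5.74, 5.27 and 5.32 in βUCP2Tg and 5.84, 5.62, 5.38 and 5.38 in WT islets. Its groups overlapped, with a difference of 0.03 ± 0.19 (SE), at processed signals of 18351 to 33029. This is bright for a gene that mature β-cells keep low. Processed signals were 528.5 to 2066.6 for A_55_P2027999 and 9.1 to 18.7 for the other 2 tested probes. Which probe best reflects Hk1 RNA was not tested. The transcript variant 1 probe A_55_P2027999 read 0.20, -0.0005, 0.21 and 1.44 in βUCP2Tg and 0.33, 2.14, 2.15 and 1.75 in WT islets. Here βUCP2Tg 1 to 3 and WT 1 were low, and βUCP2Tg 4 lay between them and the other WT arrays. The difference was -1.13 ± 0.47 over 8 arrays, not called, and -1.55 ± 0.34 without WT 1, called. The other 2 tested probes of Hk1 were dim: A_55_P2718999 differed by -0.35 ± 0.16, and the transcript variant 2 probe A_55_P2647528, well above background on 7 arrays, by -0.05 ± 0.19.

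WT 1, which lay among the transgenic arrays for Hk2 and the Hk1 variant 1 probe, was also the lowest WT array for the mean of the hypoxia-response genes. βUCP2Tg 4 was the highest transgenic array for both probes and for this mean, although single genes of the list, such as Car9 and Ndrg1, were lowest there among the transgenic arrays. Many genes of this list answer to hypoxia-inducible factor, which is known to act on Hk1 and Hk2 as well. The list was chosen with earlier results of these data known, so nothing is read from its counts below. Its mean differed by -1.08 between the groups, and 15 of its 17 genes, none of them a hexokinase, were lower in βUCP2Tg islets, as were 53.2% of all probes. None was called by limma (0 of 17), while 13 had an unadjusted p under 0.05 (25.2% of all probes), and the methods' t-test, unadjusted and with the fold limit, took 10 (8.01% of all probes). Lactate dehydrogenase A (Ldha), one of the 17, read 1.57 to 2.11 in βUCP2Tg 1 to 3, 4.37 in βUCP2Tg 4, 3.25 in WT 1 and 5.05 to 5.11 in WT 2 to 4. For Hkdc1, too, βUCP2Tg 4 was the highest transgenic array and WT 1 the lowest WT array, but the groups did not overlap. After subtraction of the group means, the r with the hypoxia mean over the 8 arrays was 0.93 for the Hk1 variant 1 probe, 0.90 for Hkdc1 and 0.72 for Hk2, and -0.60 for Hk1 probe A_55_P2037398. It was 0.64 and 0.55 for the 2 probes of Hk3, -0.70 and -0.69 for those of G6pc2, -0.55 and -0.01 for those of G6pc3 and -0.06 for Gckr. The hypoxia mean varied little within groups apart from βUCP2Tg 4 and WT 1, so these r values rest largely on those arrays. They were not computed without them. The part of the hypoxia state in these differences was not tested.

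**Figure D2:**
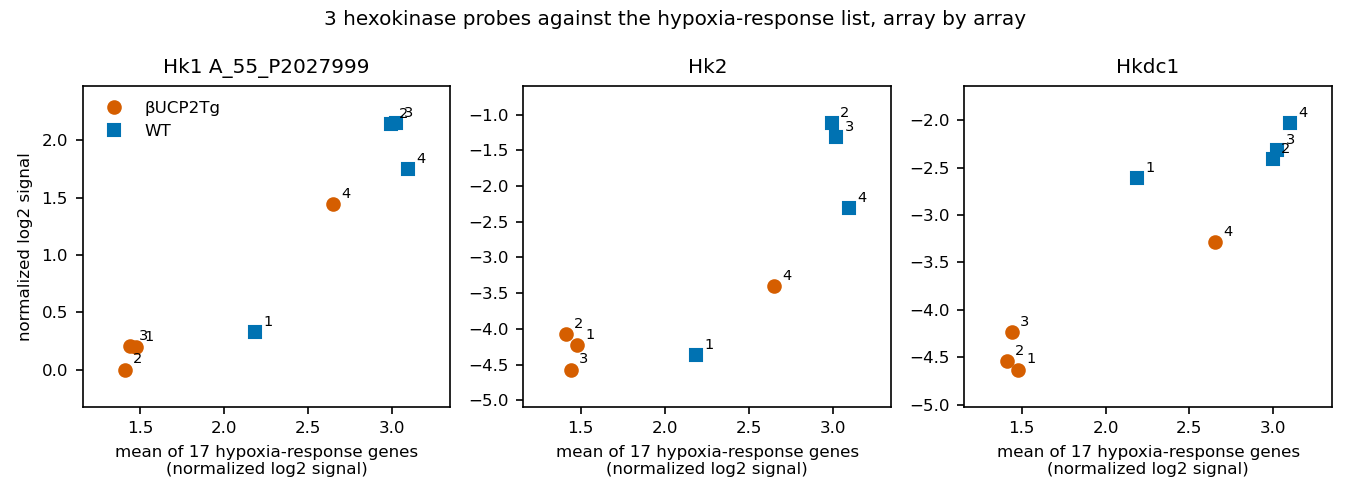
Normalized log2 signal of the Hk1 variant 1 probe, Hk2 and Hkdc1 (y) against the mean of 17 hypoxia-response genes (x), with 1 point for each array and its replicate number. βUCP2Tg 1 to 3 lie at 1.41 to 1.48 on the x axis and WT 2 to 4 at 3.0 to 3.1, with WT 1 at 2.19 and βUCP2Tg 4 at 2.65. In the middle range WT 1 is low for the first 2 genes and stays with the other WT arrays for Hkdc1.

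βUCP2Tg 4 and WT 1 were also left out together, a choice made after seeing the data. In that fit 3 member probes were called, those of Hkdc1 and Hk2 and Hk1 A_55_P2027999. Their differences were then -2.22 ± 0.15, -2.71 ± 0.32 and -1.88 ± 0.14 (SE, n = 3 and 3). The arrays left out were those nearest the other group for these probes, so larger differences followed from the choice itself. Over all probes 5486 of 34324 were called in this fit (16%), 2310 higher and 3176 lower. Hk1 probe A_55_P2037398 was then at 0.22 ± 0.20.

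**Figure D3:**
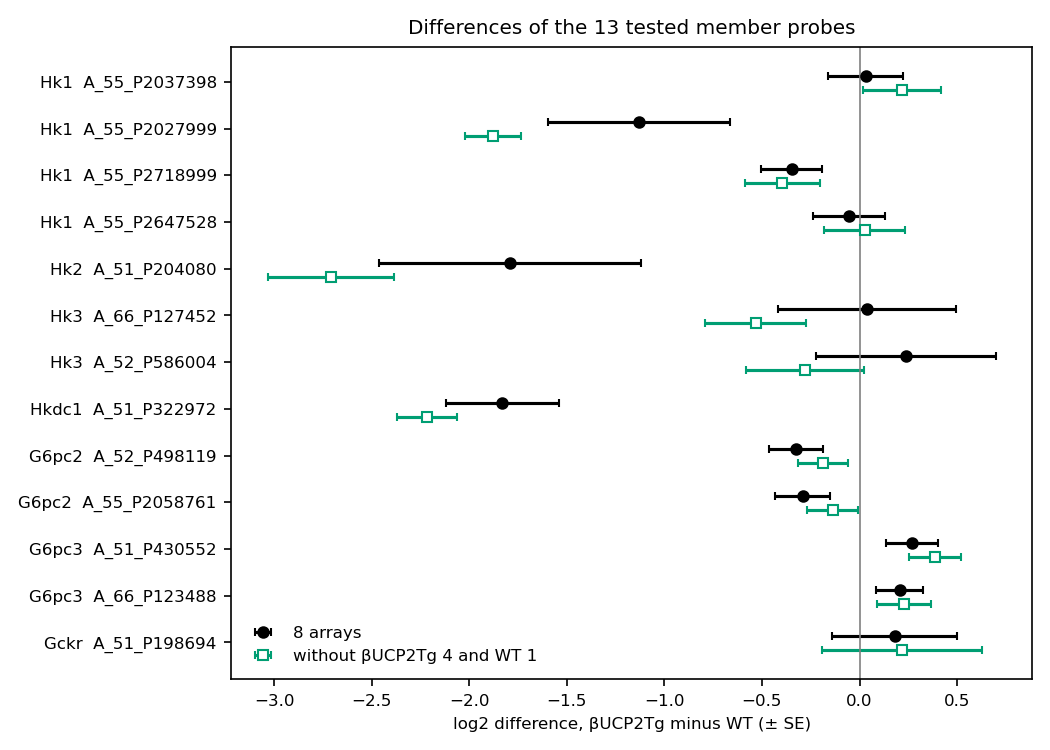
Log2 difference, βUCP2Tg minus WT, with its standard error, for the 13 tested member probes over 8 arrays (black circles, n = 4 and 4) and without βUCP2Tg 4 and WT 1 (open squares, n = 3 and 3). Hk1 A_55_P2027999, Hk2 and Hkdc1 lie farthest below 0 in both, at -1.13, -1.79 and -1.83 over 8 arrays.

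The Hk3 groups overlapped, and the gene varied widely among the WT arrays. Probe A_66_P127452 read -0.75, -0.48, -0.18 and -0.06 in βUCP2Tg and -1.82, 0.30, 0.35 and -0.47 in WT islets, a difference of 0.04 ± 0.46 (SE). WT 1 was the lowest and WT 2 and WT 3 were the highest of all 8 arrays, so that the WT SD was 1.01 against 0.31 in βUCP2Tg islets. The second probe, A_52_P586004, put WT 1 lowest and WT 2 and WT 3 highest as well, with a difference of 0.24 ± 0.46. After subtraction of the group means the 2 probes correlated over the 8 arrays with r = 0.99 (rho = 0.93, and r = 0.96 without the 2 arrays farthest from the median). Without WT 1 both differences turned negative, at -0.43 ± 0.25 and -0.22 ± 0.27, and neither probe was called.

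Of the 78 pairs of tested member probes, 40 had an r within groups under 0.5 in size, and 15 had one of 0.8 or more. Hkdc1 had r = 0.72 with the Hk1 variant 1 probe (rho = 0.79, and 0.59 for r without the 2 farthest arrays) and 0.39 with Hk2 and with Hk3 A_66_P127452, and Gckr had -0.07 with Hk2 and 0.06 with Hkdc1. Hk1 A_55_P2037398 had -0.40 with Hk2 and -0.73 with Hkdc1. Some pairs of different genes were closer. Hk2 and Hk3 A_66_P127452 had r = 0.94 (rho = 0.81, and 0.73 for r without the 2 farthest arrays, WT 1 and WT 2). Hk2 and the Hk1 variant 1 probe had r = 0.91 (rho = 0.74, and 0.87 for r without βUCP2Tg 4 and WT 1). The glucose-6-phosphatases had negative values with both, which differed between their probes. G6pc3 A_51_P430552 had r = -0.89 with Hk3 A_66_P127452 (-0.81 without the 2 farthest arrays) and -0.87 with Hk2 (-0.78). The second G6pc3 probe had r = -0.55 (-0.28) and -0.61 (-0.39) with the same probes. The 2 probes of G6pc2 had r = -0.70 (-0.88) and -0.89 (-0.91) with Hk3 A_66_P127452, and -0.67 (-0.63) and -0.82 (-0.68) with Hk2. These values describe 8 arrays that share a slide and a scaling, and they carry no p because the genes were chosen on the same arrays. Several cell type lists moved with these probes. For Hk3 A_66_P127452 the r was -0.94 with the mean of the β-cell markers, -0.78 with that of 10 macrophage and leukocyte markers and 0.90 with that of 5 measured fibroblast and pericyte markers. For Hk2 the corresponding values were -0.90, -0.84 and 0.81, and for G6pc3 A_51_P430552 they were 0.90, 0.83 and -0.80. Only 1 of 3 neutrophil markers was tested, and its r with Hk3 A_66_P127452 was 0.27, opposite in sign to that of the leukocyte mean. WT 1 was the array with the highest β-cell and leukocyte means, 5.29 and 0.47, and the lowest fibroblast mean, -2.72. The r values with these lists were not computed without WT 1. The part of these cell types in the relations was not tested.

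The glucose-6-phosphatases differed less than Hk2 and Hkdc1 did. G6pc2 probe A_52_P498119 read 7.74, 7.55, 7.50 and 7.24 in βUCP2Tg and 7.98, 7.61, 7.76 and 7.98 in WT islets. The highest βUCP2Tg array lay above the lowest WT array, and the difference was -0.33 ± 0.14 (SE). The second probe, A_55_P2058761, also placed βUCP2Tg 2, 3 and 4 below all WT arrays and gave -0.29 ± 0.14. Left-out arrays moved the 2 probes between -0.40 and -0.20, and under quantile normalization both differed by -0.14. With normexp A_52_P498119 was at -0.13 ± 0.11. Within groups, the 2 probes had r = 0.89 and 0.97 with the β-cell marker mean, and -0.80 and -0.68 with the acinar mean, whose part in the difference was not tested. G6pc3 went the opposite way. Its probe A_51_P430552 read 3.50, 3.50, 3.46 and 3.35 in βUCP2Tg and 3.44, 2.99, 2.94 and 3.36 in WT islets. WT 2 and WT 3 were below every other array, WT 1 and WT 4 lay within the range of the transgenic arrays, and the difference was 0.27 ± 0.13. Its second probe gave 0.21 ± 0.12, and none of the 4 probes of the 2 genes was called.

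Gckr was measured on all 8 arrays at a low signal. It read -3.53, -4.11, -2.61 and -3.33 in βUCP2Tg and -3.40, -3.21, -3.55 and -4.13 in WT islets. The groups overlapped, with a difference of 0.18 ± 0.32 (SE), and βUCP2Tg 3 was the highest of the 8 arrays. On that array Alb was at 4.67, against -4.68 to -3.65 on the other 7, and Serpina1a was at 5.11, against -1.98 to -0.49. Apoa1 was well above background on that array only. The mean of the 3 measured liver markers was 5.33 in βUCP2Tg 3 and 0.07 to 0.55 elsewhere, the liver marker Ttr being high on every array, at 6.04 to 6.42. G6pc, the liver glucose-6-phosphatase, was not tested for lack of signal, and its highest value, -3.35, was also that of βUCP2Tg 3. Without βUCP2Tg 3 the Gckr difference was -0.08 and without WT 4 it was -0.005, so its sign rested on single arrays. The part of liver RNA in it was not tested.

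**Figure D4:**
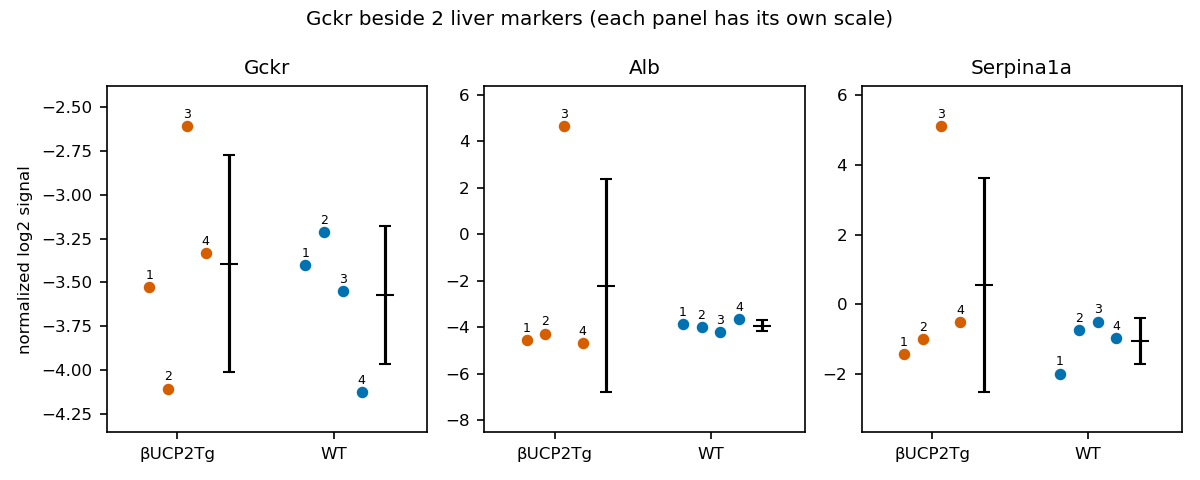
Normalized log2 signal of Gckr and of the liver transcripts Alb and Serpina1a by array, with replicate numbers and the group mean ± SD (n = 4) in black. βUCP2Tg 3 is the highest array in all 3 panels, at -2.61, 4.67 and 5.11.

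The enzymes and transporters around glucose 6-phosphate were read from a list of 53 genes, of which 50 were tested. None was called by limma (0 of 50), while 18 had an unadjusted p under 0.05, as had 25.2% of all probes. The methods' t-test at an unadjusted p under 0.05 with the same fold limit took 10 of the 50, and 8.01% of all probes. The list was split evenly, with 25 genes lower and 25 higher in βUCP2Tg islets and a median of 0.0002. The 10 genes of the next steps of glycolysis had a median of -0.63, and 6 of them were lower. The 11 glycogen genes had 9 lower and a median of -0.13, and the 6 genes of pentose phosphate entry had 5 higher and a median of 0.23.

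Slc2a1, the glucose transporter GLUT1, had the largest difference of the list. It read 1.16, 1.20, 1.37 and 4.05 in βUCP2Tg and 3.22, 4.98, 4.74 and 4.86 in WT islets. βUCP2Tg 4 lay above WT 1, as for the mean of the hypoxia-response genes. The Slc2a1 difference of -2.51 ± 0.70 (SE) had an adjusted p of 0.10 by limma. Pfkfb3, which makes the activator of phosphofructokinase, differed by -1.68 (limma, adjusted p = 0.16), and the liver-type phosphofructokinase Pfkl by -1.60 (limma, adjusted p = 0.13). On the higher side, the fucose kinase Fcsk differed by 0.71 (limma, adjusted p = 0.10), the transporter Slc2a10 by 0.68 (limma, adjusted p = 0.14) and the N-acetylglucosamine kinase Nagk by 0.40 (limma, adjusted p = 0.16). Without WT 1, 9 genes of the list were called, Slc2a1, Pfkl and Pfkfb3 among them, where 10.8% of all probes were called, and without βUCP2Tg 4, 7 genes were, where 4.18% of all probes were called. Muscle glycogen phosphorylase (Pygm), named after its values were seen, was the 1 gene of 50 whose arrays did not overlap, where 12.4% of all probes did not, with a difference of -0.64 ± 0.14 (limma, adjusted p = 0.08).

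The mitochondrial channel genes Vdac1, Vdac2 and Vdac3, whose products form the outer membrane pores on which hexokinase docks, differed by -0.003 ± 0.12, 0.003 ± 0.09 and 0.23 ± 0.13, and none was called.

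**Figure D5:**
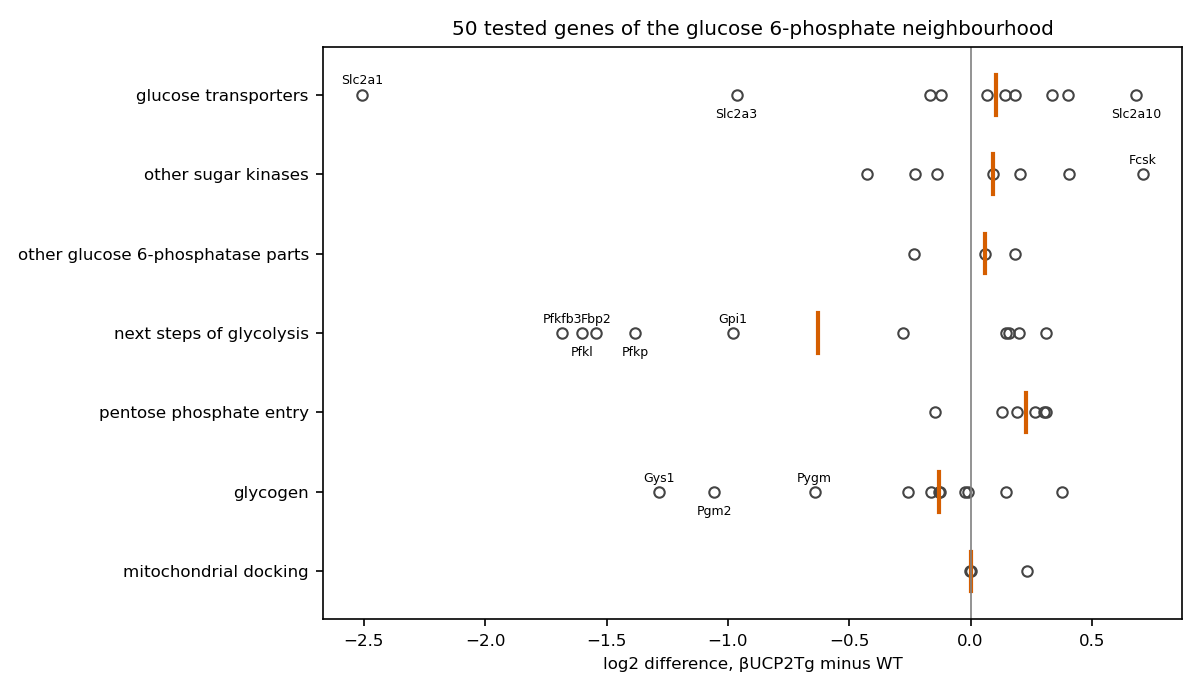
Log2 difference, βUCP2Tg minus WT, of the 50 tested genes around glucose 6-phosphate, 1 circle for each gene in 7 groups, with the median of each group as an orange bar. Genes beyond 0.6 in size are named. The next steps of glycolysis have the lowest median, -0.63, and none of the genes was called.

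Promoters of Hk1, Hk2 and Hkdc1 are shown because the mean of the hypoxia-response genes was low on βUCP2Tg 1 to 3. On these arrays the probes of Hk2 and Hkdc1 and Hk1 probe A_55_P2027999 were low as well. Hk1 probe A_55_P2037398 was not low there, and the Hk1 window was not tied to a transcript variant. Windows of 300 bases around the start sites of all 7 genes, 9 windows in all, were taken from RefSeq (GRCm38.p6) and searched on both strands for ACGTG, the core to which hypoxia-inducible factor binds, for GCGTG, its other form, and for the E-box CACGTG, which contains ACGTG on both strands. Capitals mark ACGTG and GCGTG and their reverse complements.
Hk1, chr10:62340372-62340671, minus strand: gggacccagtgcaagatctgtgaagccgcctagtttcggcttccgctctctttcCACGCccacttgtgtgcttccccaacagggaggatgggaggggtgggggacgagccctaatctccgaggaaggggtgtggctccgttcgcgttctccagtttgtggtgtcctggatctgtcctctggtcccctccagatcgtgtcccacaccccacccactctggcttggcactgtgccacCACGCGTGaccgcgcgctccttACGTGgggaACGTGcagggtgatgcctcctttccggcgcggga
Hk2, chr6:82774405-82774704, minus strand: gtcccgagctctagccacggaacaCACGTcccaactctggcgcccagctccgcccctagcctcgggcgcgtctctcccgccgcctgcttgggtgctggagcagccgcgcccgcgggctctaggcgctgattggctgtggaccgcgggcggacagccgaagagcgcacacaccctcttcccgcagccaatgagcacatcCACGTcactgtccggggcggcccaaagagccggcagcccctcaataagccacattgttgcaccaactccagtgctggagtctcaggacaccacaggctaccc
Hkdc1, chr10:62422408-62422707, minus strand: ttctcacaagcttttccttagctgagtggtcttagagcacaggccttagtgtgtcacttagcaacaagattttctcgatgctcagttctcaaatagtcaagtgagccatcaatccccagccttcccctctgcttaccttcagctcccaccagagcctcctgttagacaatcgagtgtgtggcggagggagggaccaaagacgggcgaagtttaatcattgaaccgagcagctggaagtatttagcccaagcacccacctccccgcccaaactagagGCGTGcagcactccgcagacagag

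The Hk1 window held 2 matches of ACGTG and 3 of GCGTG, a pair of which overlap. The Hk2 window held 2 matches of ACGTG, and that of Hkdc1 held 1 match of GCGTG and 0 of ACGTG. A second Hk1 window, at another start site, held neither. ACGTG was present in 5 of the 9 member windows and in 19.6% of the 32851 windows of all genes. ACGTG or GCGTG was present in 8 of the 9 member windows, those of Hk3, G6pc2, G6pc3 and Gckr included, and in 43.8% of all windows. The E-box was found in 1 of the 9 member windows, that of G6pc3, which held 2, and in 7.2% of all windows. These are letters in a window and not binding sites, and nothing is drawn from them about any factor.

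Patterns across arrays were last compared between each member and the 35343 tested probes with a value on every array. For each main probe, the genes with the highest correlation of deviations from the group means were taken over the 8 arrays, with the r of the closest gene between 0.95 and 0.998. For Hkdc1 they were Eif3a, Mtf1 and Abhd18, for Hk2 Cacnb2, Cacfd1 and 4732419C18Rik, for Hk3 Pde9a, 3930401B19Rik and Xrn1, and for Hk1 1700027A15Rik, Sart1 and Gfra4. For G6pc2 they were Ptpn21, Mmp17 and Cyp20a1, for G6pc3 Rap1gapos, Cdk4 and Mtrf1, and for Gckr Opa3, Med1 and Akap13. These are the 3 highest of so many probes over only 8 arrays.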

How the data were processed

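Total RNA of islets from 4 βUCP2Tg and 4 WT samples was measured on 1-colour Agilent arrays, read with Feature Extraction (version 10.7.3.1 per the file headers, 9.1 per the submitters' processing notes) in mouse build mm9. The deposited scanner files hold processed signal intensity, already corrected for background by the authors' software. The authors also deposited a table of log2 values, which differed from the values used here by a constant on each array within 0.001 for 100% of probes, and which supplied gene symbols and probe sequences.

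Control and outlier-flagged spots were removed, each array's 75th percentile of log2 signal was subtracted, and spots of a probe were averaged. Probes well above background on at least 4 of 8 arrays were tested (35363 of 56605, for 17870 genes; 33191 to 36320 probes were measured on each array). No spot was saturated, and the number of arrays limits the precision. Groups were compared with limma 3.58.1 (R 4.3.3), with Benjamini-Hochberg adjustment over all tested probes. The procedure was tested on simulated data. The alternatives were other filters, scalings, tests, a replicate block and leaving out each array. The methods' t-test is the Student's t-test that the methods give for pairwise comparisons in general. They do not state it for the arrays.

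Member genes, lists and tests were chosen with earlier results of these data known. The main probe of a gene was that with the highest mean. By rule, the genes named outside the members were Ucp2, the called and the 3 most different listed genes in each direction, and the 3 genes most like each member. Chosen after their values were seen were Pygm, G6pc, Vdac1, Vdac2, Vdac3 and, from the marker lists, Ldha, Car9, Ndrg1 and the liver and duct genes. Of the probes without a symbol, 47 were named by their accession through RefSeq. Figures were drawn with matplotlib 3.10.9. One listed gene is not reported here.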

Additional observations from a re-analysis of the deposited data

Results flagged for a closer look

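Within groups of 4, the array farthest from the others was set against the others by its gap over the range of the group (Dixon's test). Over 64 such groups 9 passed. Chance gives about 3.2 where groups are independent and chosen without their values, which these were not, so nothing is read from the number. For the Hk1 variant 1 probe A_55_P2027999, βUCP2Tg 4 read 1.44 against -0.0005 to 0.21 on the other transgenic arrays (gap over range 0.86). The same array lay apart for Slc2a1 (4.05 against 1.16 to 1.37, ratio 0.93), Pfkl (2.33 against 0.06 to 0.26, ratio 0.91) and the hypoxia-response mean (2.65 against 1.41 to 1.48, ratio 0.95).

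WT 1 lay apart from WT 2 to 4 for Slc2a1 (3.22 against 4.74 to 4.98, ratio 0.86), Pfkl (1.29 against 2.60 to 2.76, ratio 0.89) and the hypoxia-response mean (2.19 against 3.0 to 3.1, ratio 0.89). It was also lowest for the pancreatic polypeptide marker (7.49 against 8.05 to 8.10, ratio 0.92). βUCP2Tg 3 lay apart for the liver marker mean (5.33 against 0.15 to 0.40, ratio 0.95).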

How the results depend on the processing

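The Ucp2 difference passed its threshold under all 23 alternatives, with 6.13 to 6.37 when single arrays were left out and 3.34 when its probes were averaged. Counts of called probes did not hold as well. Against 73 higher and 72 lower, they were 18 and 3 without the filter on dim probes, 138 lower with probes well above background on all 8 arrays, 149 and 147 with normexp background correction, 162 and 241 with an intensity trend and robust eBayes, 1003 and 1829 by the methods' t-test unadjusted and 17 and 9 by that test after adjustment. Leaving out single arrays gave 8 to 1787 higher and 0 to 1972 lower, 0 to 3 member probes and 0 to 9 genes around glucose 6-phosphate. The most calls came without WT 1, and without βUCP2Tg 4 there were 349 higher and 1118 lower. Without βUCP2Tg 4 and WT 1 together, chosen after seeing the data, there were 2310 higher, 3176 lower, 3 member probes and 15 genes around glucose 6-phosphate.

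Of the member probes, 1 was called, that of Hkdc1, and 0 were without the filter on dim probes, under quantile normalization, by the methods' t-test after adjustment and with the replicate block. The methods' t-test unadjusted took 10 genes around glucose 6-phosphate where limma took 0. With the replicate number as a block, 13 probes were called higher and 1 lower. Deviations of arrays with the same number correlated with r = 0.44, -0.05, -0.01 and -0.24 for numbers 1 to 4. These values cannot settle whether the numbers pair the samples, which the labels do not say. The cause of these shifts was not tested. Member differences moved by more than the spread between replicates in 3 cases: Hkdc1 (-0.75) and Hk1 A_55_P2718999 (-0.06) with normexp, and Hk1 when its probes were averaged (-0.38). The normexp setting moved Hkdc1 and Hk2, both dim, the most of the member probes, from -1.83 to -0.75 and from -1.79 to -0.97.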
